A study of Mus musculus with 17 samples.

Results

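The integrated stress response was followed in mouse liver through 10 genes taken by name: the transcription factors Atf4, Atf5, Atf3, and Ddit3, the effector genes Asns, Chac1, Trib3, and Sesn2, and the secreted factors Fgf21 and Gdf15. They are 10 of the 19358 genes that could be tested and lie on 13 of 41174 non-control probes. All 13 probes passed the filter on dim signals, and the probe brightest in liver stands for a gene that has several. The 10 genes were chosen with earlier results of these data known, so the shares of them called below are descriptions.

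Livers of 17 male mice were measured, 1 array per mouse, in a design that crossed diet with a single gavage. The chow group (n = 4) ate chow diet for 3 months and received maltose. The 1B group (n = 4) ate chow diet for 3 months and received 1 binge of ethanol at 5 g/kg. The HFD group (n = 4) ate a high-fat diet for 3 months and received maltose. The HFD+1B group (n = 5) ate that high-fat diet for 3 months and received the same dose of ethanol. Mice were killed 9 hours later. The sample labels name the strain C57BL/6N and the study's methods C57BL/6J, the labels give no genetic change and no age, and each sample is whole liver tissue, so that RNA of all liver cells is mixed in each value.

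Cells halt most protein synthesis when a kinase phosphorylates the initiation factor eIF2α, in response to unfolded protein in the endoplasmic reticulum, amino acid shortage, heme shortage, or viral RNA. Translation of the transcription factors ATF4 and ATF5 then increases, and ATF4 turns on genes of amino acid supply, of redox balance, and, through CHOP (encoded by Ddit3), of cell death. In liver the same program drives the hormone FGF21, which is also a target of the fasting receptor PPARα and is known to be raised by alcohol and by fatty liver, and the stress cytokine GDF15, which acts on appetite through a receptor in the hindbrain.

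The 250 bases before the RefSeq gene start (build GRCm38.p6) were searched for the C/EBP-ATF composite element, at which ATF4 binds together with a C/EBP factor. The letters searched were TGATGNAA and, for the other strand, TTNCATCA. Of the 10 genes, 4 (Atf3, Asns, Chac1, and Fgf21) hold a match, and 3.45% of all 32851 promoter windows of this length do. Those 4 windows are shown because they hold the element: Atf3, Chac1, and Fgf21 were called in HFD+1B minus chow, whereas Asns, a classic ATF4 target, was not. Each is written 5′ to 3′ on the strand of the gene, and capitals mark the match.
Atf3, chr1:191183334-191183583, minus strand: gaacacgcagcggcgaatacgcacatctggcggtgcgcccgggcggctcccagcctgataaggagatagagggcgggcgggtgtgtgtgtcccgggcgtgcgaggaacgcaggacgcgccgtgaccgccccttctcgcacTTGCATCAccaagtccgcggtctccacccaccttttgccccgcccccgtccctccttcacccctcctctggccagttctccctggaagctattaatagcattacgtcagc
Asns, chr6:7693210-7693459, minus strand: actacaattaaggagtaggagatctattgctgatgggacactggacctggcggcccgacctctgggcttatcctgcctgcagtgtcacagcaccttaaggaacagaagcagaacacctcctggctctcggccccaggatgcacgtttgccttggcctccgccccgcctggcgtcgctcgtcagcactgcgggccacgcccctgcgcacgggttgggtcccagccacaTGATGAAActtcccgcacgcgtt
Chac1, chr2:119350992-119351241, plus strand: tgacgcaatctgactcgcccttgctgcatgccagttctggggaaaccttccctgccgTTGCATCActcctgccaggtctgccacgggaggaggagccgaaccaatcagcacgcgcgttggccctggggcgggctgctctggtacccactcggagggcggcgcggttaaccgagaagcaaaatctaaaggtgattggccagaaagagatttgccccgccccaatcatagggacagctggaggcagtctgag
Fgf21, chr7:45615491-45615740, minus strand: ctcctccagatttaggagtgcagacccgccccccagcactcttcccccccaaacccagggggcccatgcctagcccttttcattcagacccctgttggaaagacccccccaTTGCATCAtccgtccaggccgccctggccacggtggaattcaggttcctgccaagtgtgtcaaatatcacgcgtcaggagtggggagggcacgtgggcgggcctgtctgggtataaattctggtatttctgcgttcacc

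Atf3, Chac1, and Fgf21 share the same 8 letters, TTGCATCA, on the strand opposite to the composite element as written above, and Asns has TGATGAAA on the gene's own strand. Counted back from the gene start, the last base of the match is base 103 in Atf3, 16 in Asns, 186 in Chac1, and 132 in Fgf21. Gdf15 and Atf5, with 2 start sites each, and Atf4, Ddit3, Trib3, and Sesn2 have no match in this window. The cAMP response element TGACGTCA, which is its own complement, occurred in none of the windows of the 10 genes (1.55% of all windows), and the endoplasmic reticulum stress element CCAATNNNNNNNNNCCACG, searched on both strands, in none either (0.113% of all windows). A match is a run of letters and was not tested for binding.

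**Figure D1:**
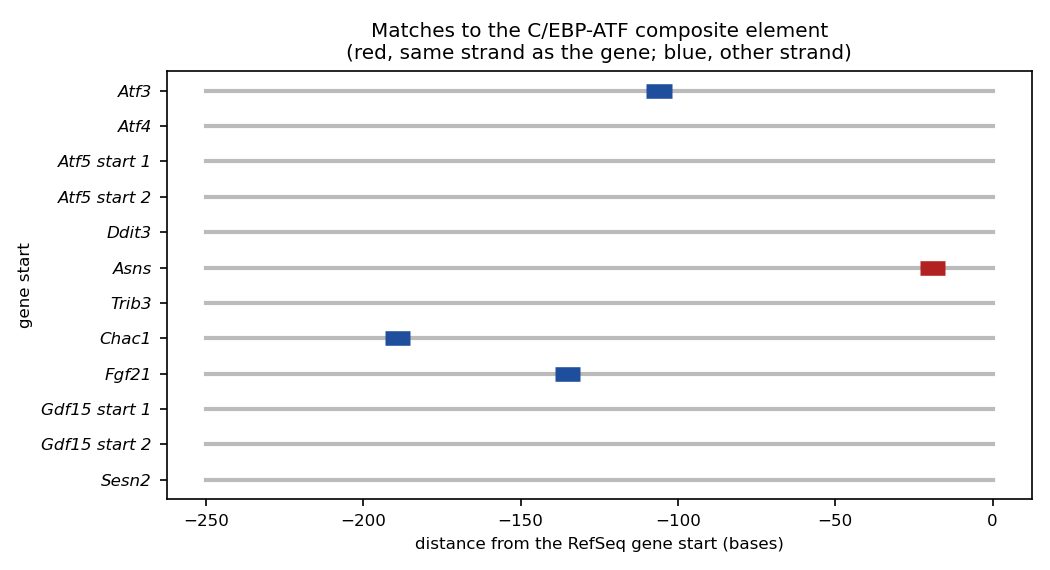
Matches to the C/EBP-ATF composite element in the 12 RefSeq promoter windows of the 10 genes. The horizontal axis is the distance from the gene start in bases, grey lines are the 250 bases searched, and blocks are matches (red, on the strand of the gene; blue, on the other strand). Only Atf3, Asns, Chac1, and Fgf21 hold a block.

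All levels below are log2 ratios of liver to a reference RNA that was the same on every array. A ratio is comparable between mice for 1 gene but not between genes, and a difference of 1 is a doubling. Differences are from a limma fit of the 4 groups and count as called up to a Benjamini-Hochberg adjusted p of 0.05, with adjustment over the 34664 probes tested. The comparisons share groups (chow enters 4 of 6), so they are not independent of each other. The median liver (Cy5) signal lay between 43 and 138.5 intensity units per array, 74.2% to 86.1% of probes were well above background, and the hepatocyte markers tested (7 of 7, among them Alb, Apoa1, and Ttr) were measured above background in every group. The number of arrays limits the precision.

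HFD+1B against chow, which asks what diet and ethanol do together, had the most genes of the set higher: Atf3, Atf5, Chac1, Fgf21, and Gdf15, 5 of 10, and none lower. Of all genes, 9.01% were higher and 7.28% lower in this comparison (16.3% called). The groups did not overlap for 6 of the 10, those 5 and Sesn2 (15.5% of all genes). Sesn2 was lower, on its brightest probe with 2 chow values, and its second probe overlapped. Atf4, Ddit3, Asns, Trib3, and Sesn2 were not called, and the median difference of the 10 genes was 0.44 (0.002 over all genes).

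Ethanol on chow raised Atf4 and Atf5, 2 of 10, and lowered none, where 2.14% of all genes rose and 2.01% fell (4.15% called). The groups did not overlap for 5 genes (11.9% of all genes), 4 higher and 1 lower, the brightest Sesn2 probe with its 2 chow values. HFD raised Atf3, Atf5, Fgf21, and Gdf15, 4 of 10, and the brightest Sesn2 probe was lower, where 4.6% of all genes rose and 6.28% fell (10.9% called), and these 5 did not overlap with chow (19.2% of all genes). Ethanol on HFD raised Chac1 and Gdf15, 2 of 10, where 10.8% of all genes rose and 8.43% fell (19.3% called), so that the share of the set was near that of all genes. The groups did not overlap for 3 genes (15.3% of all genes).

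HFD+1B against 1B, which asks what diet does under ethanol, had Atf3, Chac1, and Gdf15 higher and Atf4 lower, where 6.26% of all genes were higher and 5.11% lower (11.4% called, and as many without overlap). The interaction is the ethanol difference on HFD minus that on chow. It was positive for Chac1 and Gdf15 (2.53% of all genes) and negative for Atf5 (1.73% of all genes; 4.26% called in all). By the methods' Tukey test, adjusted over all probes, the calls that remained were Atf5 in 1B minus chow, Atf3, Atf5, Chac1, and Gdf15 in HFD+1B minus chow, Chac1 in HFD+1B minus HFD, and Chac1 and Gdf15 in HFD+1B minus 1B, with none in HFD minus chow (5 before adjustment) and no value for the interaction.

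**Figure D2:**
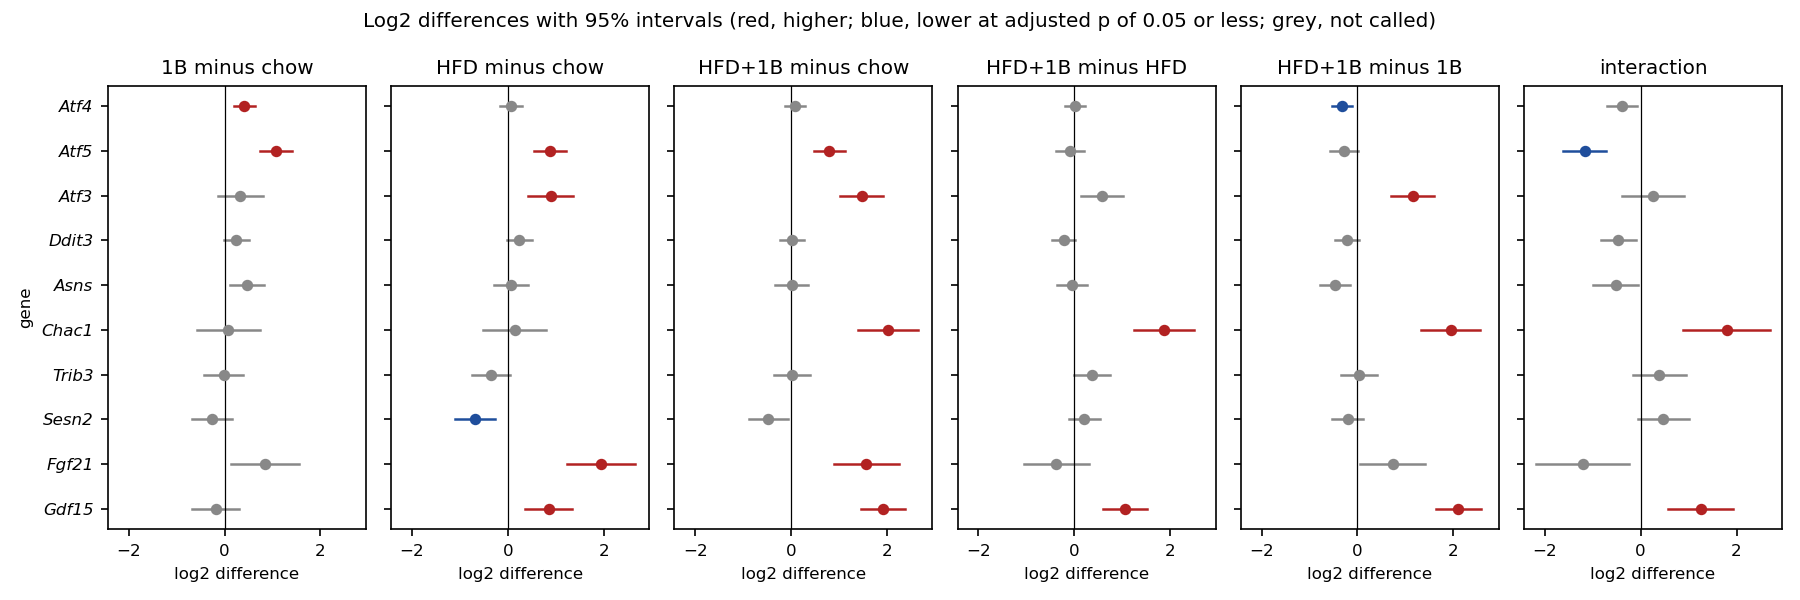
Log2 differences of the 10 genes in the 6 comparisons. Points are differences between group means on the log2 scale, bars their 95% intervals, and colors the calls (red, higher; blue, lower; grey, not called). Chac1 and Gdf15 lie to the right in each of the panels that contain HFD+1B, whereas Atf5 lies to the right in the 3 comparisons with chow and to the left in the interaction.

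Atf4, the central transcription factor of the response, is controlled mainly through translation, which an array does not see. Its mRNA rose after ethanol on chow, and no difference was called on HFD. Chow mice were at 0.09, 0.21, −0.10, and 0.16, and 1B mice at 0.65, 0.43, 0.50, and 0.41. All 4 1B mice were above all chow mice (difference 0.41 ± 0.11 SE, 1.33-fold, adjusted p = 0.0364 by limma). HFD mice were at 0.25, 0.05, 0.33, and 0.01, and HFD+1B mice at 0.35, 0.14, 0.29, −0.02, and 0.12. Those 9 mice overlapped with chow, and the difference between HFD+1B and HFD was 0.02 (95% interval −0.19 to 0.23). HFD+1B was below 1B by a difference of −0.32 (adjusted p = 0.0492 by limma), with no overlap. The interaction, −0.39, was not called (adjusted p = 0.138 by limma) but was with the slide as a block (−0.44, adjusted p = 0.0468 by limma). The rise on chow was not called without any 1 of chow mice 1, 3, or 4 or 1B mice 1, 2, 3, or 4 (0.34 to 0.44, adjusted p = 0.0541 to 0.146 by limma), and the lower level in HFD+1B than in 1B was not called without any 1 of 13 mice (−0.35 to −0.27, adjusted p = 0.0522 to 0.157 by limma; chow mice 1, 2, and 4, all 1B mice, HFD mice 1, 2, and 4, and HFD+1B mice 2, 4, and 5). Neither was called in the authors' table (0.39 and −0.34, adjusted p = 0.14 and 0.0963 by limma), from Cy5 alone (0.43 and −0.26, adjusted p = 0.0781 and 0.234 by limma), or with log ratios centred on the median in place of loess (0.33 and −0.19, adjusted p = 0.463 and 0.6 by limma). The difference from 1B was also not called among probes well above background on all 17 arrays (adjusted p = 0.0592 by limma) or with the replicate number as a block (−0.31, adjusted p = 0.0672 by limma). Leaving out a chow or HFD mouse kept the difference from 1B at −0.32 and changed only its error and the adjustment.

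Atf5, a second ATF factor under the same translational control and known in liver for its abundance, was higher in each of the 3 groups than in chow. The chow mice with a value were at −0.63, −0.60, and −0.73 (the spot of chow mouse 1 was marked as an outlier and left out). The 1B mice were at 0.44, 0.29, 0.58, and 0.39, the HFD mice at 0.24, 0.17, 0.62, and −0.11, and the HFD+1B mice at −0.09, 0.43, −0.11, 0.13, and 0.35. No mouse of the other 3 groups reached down to the chow level. The differences from chow were 1.08 ± 0.16 for 1B (2.12-fold, adjusted p = 6.51e-04), 0.88 ± 0.16 for HFD (1.85-fold, adjusted p = 0.00259), and 0.80 ± 0.15 for HFD+1B (1.74-fold, adjusted p = 0.00152; errors are SE, p-values by limma). Ethanol on HFD gave −0.09 (95% interval −0.38 to 0.21), so that the ethanol differences on the 2 diets differed by −1.17 ± 0.21 SE (adjusted p = 0.00926 by limma). With the outlier spot kept, the interaction was −1.23 and was still called. With median centring, the HFD difference was 0.55 (adjusted p = 0.124 by limma) and the interaction −0.76 (adjusted p = 0.135 by limma).

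Atf3, an early stress factor that ATF4 and inflammatory signals both induce, had its lowest values in chow and its highest in HFD+1B. Chow mice lay close together at −1.24, −1.19, −1.24, and −1.30. The 1B mice were at −0.44, −1.04, −1.11, and −1.07, the HFD mice at −0.27, −0.24, −0.42, and −0.44, and the HFD+1B mice at 0.06, −0.16, 0.12, 1.23, and −0.08. All 1B mice were above all chow mice, yet only 1B mouse 1 by a wide margin, and HFD+1B mouse 4 stood above the other 4 of its group. Atf3 rose by 0.90 ± 0.22 in HFD (1.87-fold, adjusted p = 0.0169) and by 1.48 ± 0.21 in HFD+1B (2.79-fold, adjusted p = 1.15e-04) relative to chow, and HFD+1B exceeded 1B by 1.15 ± 0.21 (adjusted p = 0.00206; errors are SE, p-values by limma). Of neighbors in the order of group means, 1B minus chow (0.33, adjusted p = 0.609 by limma) and HFD+1B minus HFD (0.58, adjusted p = 0.0671 by limma) were not called, and HFD was not compared with 1B. Without HFD+1B mouse 4, HFD+1B minus HFD was 0.33 (adjusted p = 0.0971 by limma). HFD+1B minus HFD was called with the slide as a block (0.63, adjusted p = 0.0495 by limma), with the replicate number as a block (0.66, adjusted p = 0.0452 by limma), with median centring (0.69, adjusted p = 0.0272 by limma), and without HFD+1B mouse 2 or 5 (0.68 and 0.66). From the Cy5 channel alone, HFD minus chow was 0.52 and was not called (adjusted p = 0.313 by limma).

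Ddit3 encodes CHOP, the factor that links prolonged stress to cell death. It was not called in any of the 6 comparisons. Chow mice were at 0.23, 0.09, −0.01, and −0.08, 1B mice at 0.57, 0.48, 0.09, and 0.07, HFD mice at 0.50, 0.34, 0.15, and 0.22, and HFD+1B mice at 0.18, 0.24, −0.02, −0.09, and 0.11. The 4 groups overlapped. HFD+1B minus chow was 0.02 (95% interval −0.22 to 0.27), an interval that does not reach a doubling of this probe's ratio. The interaction was −0.46 (adjusted p = 0.134 by limma) and was called with the replicate number as a block (−0.47, adjusted p = 0.0245 by limma).

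Among the effector genes, Asns encodes asparagine synthetase, the textbook ATF4 target of amino acid shortage. The chow mice with a value were at 0.08, 0.15, and −0.14 (mouse 1 was left out as an outlier spot), and the 1B mice at 0.49, 0.83, 0.42, and 0.27. HFD mice were at 0.27, 0.23, −0.09, and −0.07, and HFD+1B mice at 0.10, 0.20, −0.08, −0.39, and 0.38. The 1B mice were all above the chow mice, but the difference of 0.48 ± 0.17 SE was not called (adjusted p = 0.162 by limma). It was called with the slide (0.50, adjusted p = 0.0313 by limma) or the replicate number (0.44, adjusted p = 0.0364 by limma) as a block. HFD+1B minus chow was 0.01 (95% interval −0.33 to 0.35). HFD+1B minus 1B was −0.46 (adjusted p = 0.0561 by limma) and was called without 1B mouse 4 or HFD+1B mouse 5 (−0.54 and −0.55) and with either block (−0.43 and −0.55). It was also called when each gene was the mean of its probes (adjusted p = 0.0459 by limma). Asns has 1 probe, so its difference stayed at −0.46 and only the values of other genes in the fit changed.

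Chac1 encodes an enzyme that degrades glutathione and is a target of ATF4. It rose in HFD+1B alone among the 3 treated groups, by the tests against chow and by the interaction. Chow mice were at −0.80, −1.29, −1.98, and −1.59, 1B mice at −1.15, −1.84, −1.61, and −0.74, and HFD mice at −1.0, −1.60, −0.85, and −1.63. HFD+1B mice were at 0.76, −0.03, 1.22, 1.09, and 0.01. Every HFD+1B mouse was above every mouse of the other 3 groups, and those 12 mice overlapped. HFD+1B exceeded chow by 2.02 ± 0.30 (4.06-fold, adjusted p = 1.39e-04), HFD by 1.88 ± 0.30 (3.68-fold, adjusted p = 4.59e-04), and 1B by 1.94 ± 0.30 (3.84-fold, adjusted p = 4.56e-04; errors are SE, p-values by limma). Ethanol on chow gave 0.08 (95% interval −0.58 to 0.74) and HFD 0.14 (95% interval −0.51 to 0.80). The ethanol difference was larger on HFD than on chow by 1.80 ± 0.43 SE (adjusted p = 0.027 by limma). Within slides, HFD+1B was above chow on 4 of 4 (1.3 to 2.81) and above HFD on 4 of 4 (1.61 to 2.72). The interaction was not called without chow mouse 1, 1B mouse 2, or HFD mouse 4 (1.59 to 1.68, adjusted p = 0.0563 to 0.0623 by limma).

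Trib3, a pseudokinase that ATF4 and CHOP induce and that feeds back on both, was not called in any comparison. Chow mice ranged from −0.54 to −0.03, 1B mice from −0.60 to 0.22, HFD mice from −0.74 to −0.28, and HFD+1B mice from −0.70 to 0.23. The groups overlapped, and HFD+1B minus chow was 0.02 (95% interval −0.36 to 0.40). The second Trib3 probe gave 0.05 for that difference and was not called in any comparison either.

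Sesn2, which encodes sestrin 2, an inhibitor of growth signaling under amino acid shortage and oxidative stress, is the gene whose probes disagreed. On its brightest probe the chow mice with a value were at 0.76 and 0.80, the other 2 having outlier spots, and HFD mice were at 0.46, 0.24, −0.06, and −0.25. The 1B mice were at 0.40, 0.69, 0.63, and 0.34, and the HFD+1B mice at 0.58, 0.43, 0.06, 0.50, and −0.01. HFD was below chow by a difference of −0.68 ± 0.20 SE (adjusted p = 0.0399 by limma), without overlap, and HFD+1B minus chow, −0.47, was not called (adjusted p = 0.12 by limma). With the outlier spots kept, HFD minus chow was −0.63 (adjusted p = 0.0144 by limma). The lower level in HFD was not called without chow mouse 1, 3, or 4 or HFD mouse 3 or 4 (−0.70 to −0.56, adjusted p = 0.0524 to 0.161 by limma). Chow mouse 1 has no value on this probe. Without it the difference stayed at −0.68, and only the values of other genes in the fit changed. The call was also lost with the slide as a block (−0.70, adjusted p = 0.0611 by limma), from Cy5 alone (−0.97, adjusted p = 0.271 by limma), and with the mean of both probes (−0.24, adjusted p = 0.446 by limma). On the second probe HFD minus chow was −0.29 (adjusted p = 0.382 by limma), and HFD+1B exceeded HFD by 0.62 ± 0.19 SE (adjusted p = 0.0286 by limma) with overlapping groups, so that no direction for the gene is given here.

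Fgf21, the hepatic hormone of the set, was higher in HFD and in HFD+1B than in chow. Chow mice were at −1.96, −1.81, −1.23, and −0.92 and 1B mice at −0.43, −1.45, −0.30, and −0.38. HFD mice were at 0.22, 0.21, 0.59, and 0.84, and HFD+1B mice at −0.91, 0.73, −0.37, 0.53, and 0.50. HFD mice lay above all chow and 1B mice, whereas HFD+1B mice spread from just above the highest chow mouse to the level of HFD. Relative to chow, Fgf21 rose by 1.94 ± 0.34 in HFD (3.85-fold, adjusted p = 0.0018) and by 1.57 ± 0.32 in HFD+1B (2.97-fold, adjusted p = 0.00234; errors are SE, p-values by limma). In 1B the difference was 0.84 ± 0.34 SE (adjusted p = 0.237 by limma), with 1B mouse 2 in the chow range and the other 3 above it. HFD+1B minus HFD was −0.37 (95% interval −1.04 to 0.30). The interaction was −1.21 and was not called (adjusted p = 0.149 by limma). By the Tukey test neither rise was called (adjusted p = 0.0629 for HFD and 0.0612 for HFD+1B, Tukey test after analysis of variance per probe in place of limma). HFD+1B minus 1B was 0.73 (adjusted p = 0.178 by limma) and was called without HFD+1B mouse 1 (0.99, adjusted p = 0.0351 by limma).

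Both rises of Fgf21 held within slides, with HFD above chow on 3 of 3 (1.5 to 2.18) and HFD+1B above chow on 4 of 4 (0.54 to 2.30). The second Fgf21 probe was dim and not well above background on any chow array. It was well above background on 3 of 4 1B, 4 of 4 HFD, and 5 of 5 HFD+1B arrays. On Cy5 signals made comparable between arrays, 1B was 1.22-fold, HFD 1.58-fold, and HFD+1B 1.34-fold higher than chow. The mean of the brighter group was set against, per chow array, the higher of its own signal and the lowest signal well above background. That replacement did not change the chow mean (6.02 as log2) at this precision. The values are thus differences of means and not lower bounds, and without a dye swap they are open to dye bias. By the log2 ratios of this probe, 1B minus chow was 0.39 and was not called (adjusted p = 0.181 by limma). HFD (0.79, adjusted p = 0.00247 by limma) and HFD+1B (0.53, adjusted p = 0.0129 by limma) were called higher than chow.

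Gdf15, the stress cytokine, rose in steps from chow to HFD to HFD+1B, and 1B was not called against chow. Chow mice were at −1.26, −1.32, −1.58, and −1.35, 1B mice at −1.64, −1.67, −1.49, and −1.46, and HFD mice at −0.76, −0.43, −0.65, and −0.27. HFD+1B mice were at −0.21, 0.95, 0.95, 1.06, and −0.06. Every HFD mouse was above every chow and 1B mouse, and every HFD+1B mouse above every HFD mouse, although HFD+1B mice 1 and 5 were about 1 unit below the other 3. HFD+1B exceeded chow by 1.92 ± 0.22 (3.78-fold, adjusted p = 1.3e-05), HFD by 1.07 ± 0.22 (2.09-fold, adjusted p = 0.00308), and 1B by 2.11 ± 0.22 (4.30-fold, adjusted p = 1.23e-05; errors are SE, p-values by limma). HFD minus chow was 0.85 ± 0.23 SE (1.81-fold, adjusted p = 0.0272 by limma), and 1B minus chow was −0.19 (95% interval −0.68 to 0.30). Within slides, HFD+1B was above chow on 4 of 4 (1.05 to 2.53) and above HFD on 4 of 4 (0.37 to 1.60).

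The ethanol difference of Gdf15 was larger on HFD than on chow by 1.25 ± 0.32 SE (adjusted p = 0.0358 by limma). That call was lost without any 1 of 12 mice (1.12 to 1.32, adjusted p = 0.0502 to 0.0722 by limma; all chow mice, 1B mice 1, 2, and 4, HFD mice 1 and 3, and HFD+1B mice 2, 3, and 4), in the authors' table (1.44, adjusted p = 0.0535 by limma), and from Cy5 alone (1.35, adjusted p = 0.181 by limma). The HFD rise was lost without chow mouse 3 or 4 or HFD mouse 2, 3, or 4 (0.77 to 0.89, adjusted p = 0.0521 to 0.0788 by limma), in the authors' table (0.88, adjusted p = 0.0589 by limma), with median centring (0.64, adjusted p = 0.0854 by limma), and from Cy5 alone (0.65, adjusted p = 0.313 by limma). The rises in HFD+1B kept their calls without any 1 mouse.

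**Figure D3:**
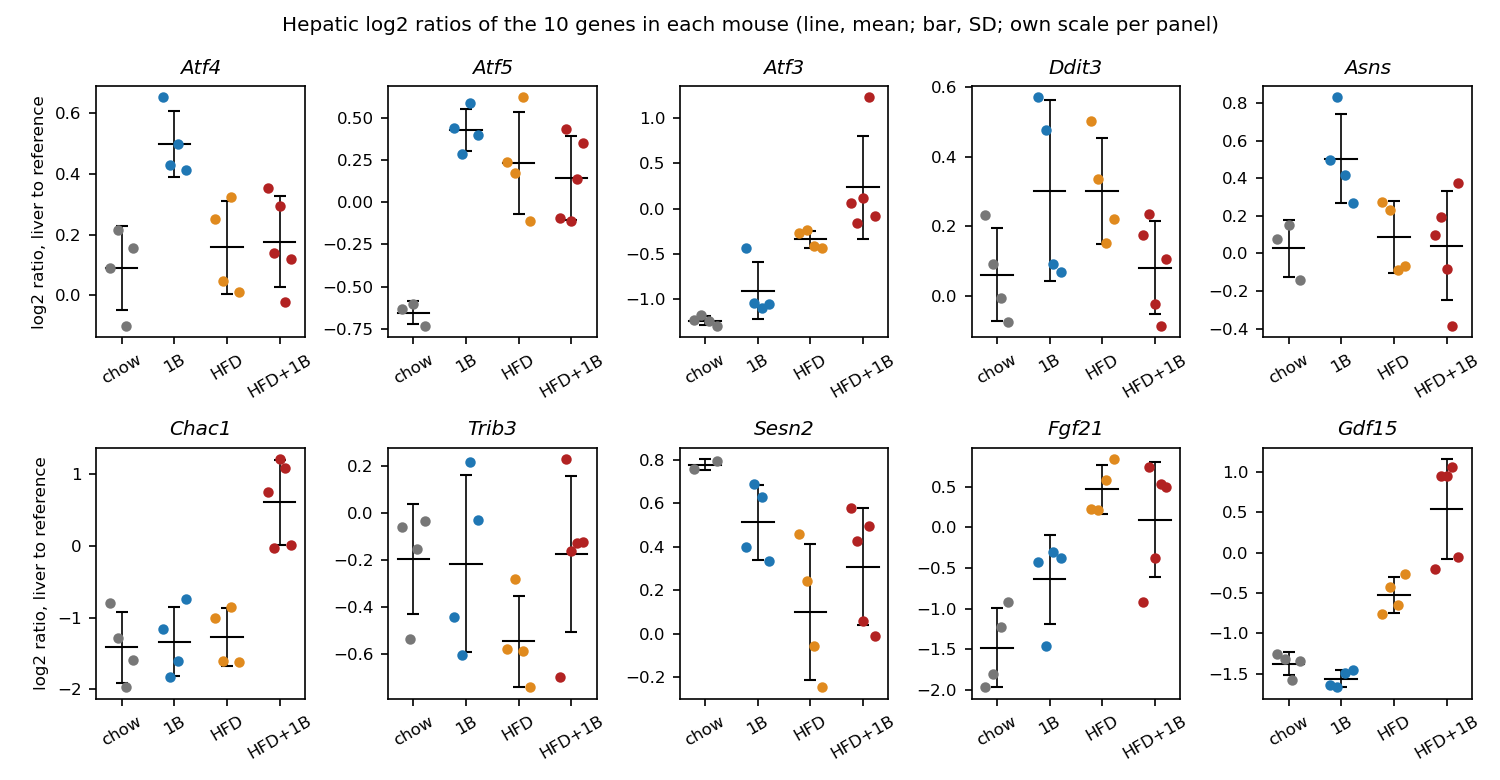
Log2 ratio of liver to reference of each of the 10 genes in each of the 17 mice. The vertical axis is the log2 ratio with its own scale per panel, points are mice, lines are group means, and bars are 1 SD. Chac1 is set apart in HFD+1B, Gdf15 steps up from chow to HFD to HFD+1B, Fgf21 is high in HFD, and Atf5 is low in chow alone.

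Other values moved with the HFD group and stand beside its calls. The 3 ribosomal RNA probes differed from chow by −3.24 in HFD on the log2 scale (mice from −4.06 to −2.40), all 3 called, against −0.25 in HFD+1B and −0.78 in 1B, where none was called. Their summed Cy5 signal, as log2, was 12.2 to 13.9 for HFD mice, 17.4 to 17.7 for chow mice, 15.9 to 17.2 for 1B mice, and 15.5 to 17.7 for HFD+1B mice. Macrophage and Kupffer cell markers averaged 0.52 above chow in HFD (3 of 8 called higher) and 0.40 in HFD+1B (1 of 8), with summed Cy5 signals of 11.3 to 12.8 in HFD, 12.1 to 13.5 in HFD+1B, and 12.2 to 12.7 in chow; Timd4, a marker of resident Kupffer cells, was not well above background in HFD or 1B. Stellate cell markers averaged 0.46 in HFD (2 of 8) and 0.54 in HFD+1B (4 of 8), with summed signals of 10.99 to 12.8, 12.7 to 13.8, and, in chow, 12.1 to 12.7. Hepatocyte markers averaged −0.43 in HFD (2 of 7 called lower), 0.43 in 1B (1 of 7 higher), and 0.13 in HFD+1B (2 of 7 higher, 1 lower), with summed signals of 17.8 to 19.5, 18.8 to 19.7, and 19.1 to 19.4, against 18.9 to 19.4 in chow. Neutrophil markers averaged −0.02 in HFD and 0.09 in HFD+1B, with 1 and 2 of 10 called higher and, in HFD+1B, 1 lower, and summed signals were 11.1 to 12.4 and 10.9 to 12.9 against 11.9 to 12.4 in chow, where S100a8 was not well above background. Minus chow, 10.9% of all genes were called in HFD, 16.3% in HFD+1B, and 4.15% in 1B. The median Cy5 signal per array was also lower in HFD (43 to 78) than in chow (79.5 to 116). The part of the marker, ribosomal RNA, and array signal shifts in the values of the 10 genes was not tested. In whole liver a change in the number of cells of a type and a change in RNA per cell cannot be told apart.

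The rest of the pathway was read from 7 lists of 129 tested genes outside the set. These lists were also chosen with earlier results of these data known, so their shares called are descriptions. In HFD+1B minus chow, 29 of the 129 were higher and 12 lower (31.8% called, 16.3% of all genes). After ethanol on chow 10 were higher and 4 lower (10.9%, against 4.15% of all genes), in HFD 8 were higher and 6 lower (10.9%, the share of all genes), and in HFD+1B minus HFD 24 were higher and 13 lower (28.7%, against 19.3%). In HFD+1B minus 1B, 16 were higher and 12 lower (21.7%, against 11.4%). In the interaction 7 were positive and 8 negative (11.6%, against 4.26%). Genes were named by the size of their difference, and Herpud1, Sesn3, Eif4ebp1, Slc30a10, Slc1a4, Slc1a5, Slc38a3, Mthfd1l, Shmt2, Eprs, Creb3l3, and Nfe2l2 were added after their values were seen, to complete short counts.

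Partners and targets of ATF4 and CHOP had 14 of 26 genes above and 2 below chow in HFD+1B (61.5% called, against 16.3% of all genes; median difference 0.47). Ddit4, an inhibitor of mTORC1 signaling, rose by 2.31 ± 0.29 SE (adjusted p = 2.65e-05 by limma). Chow mice lay between −2.41 and −0.94, 1B mice between −2.47 and −1.28, HFD mice between −2.36 and −1.72, and HFD+1B mice between −0.13 and 0.82, so that, like Chac1, all HFD+1B mice were above all others, and its interaction was 2.59 ± 0.42 SE (adjusted p = 0.00375 by limma). Vldlr, the receptor for very-low-density lipoprotein, rose by 1.34 (adjusted p = 1.18e-05 by limma), and Gadd45b, a DNA damage and stress gene, by 1.19 (adjusted p = 3.11e-04 by limma). Cebpb, a C/EBP partner of ATF4, differed from chow by −0.80 (1B), −0.43 (HFD), and 0.87 (HFD+1B), and its interaction of 2.10 ± 0.31 SE was called (adjusted p = 0.00256 by limma). Vldlr (0.85) and Eif4ebp1, an inhibitor of cap-dependent translation (0.63), also had a positive interaction, and Slc30a10, a manganese exporter, a negative one (−1.29). The 2 lower genes were Herpud1 (−0.83, adjusted p = 0.0322 by limma), which serves degradation at the endoplasmic reticulum, and Sesn3 (−0.63, adjusted p = 3.48e-05 by limma), a relative of Sesn2.

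Amino acid transporters in HFD+1B had 5 of 15 genes higher than chow and 1 lower (40% called, against 16.3% of all genes, median 0.21). Slc38a2, a carrier of neutral amino acids, rose by 1.29 (adjusted p = 0.0157 by limma), Slc6a9, a glycine carrier, by 1.1 (adjusted p = 5.56e-05 by limma), and Slc3a2, the shared heavy chain of several carriers, by 0.95 (adjusted p = 6.92e-05 by limma). The other two higher genes were Slc1a5 (0.92) and Slc1a4 (0.81), carriers of neutral amino acids, and the lower gene was Slc38a3 (−0.52), a glutamine carrier of hepatocytes. The interaction was called for Slc3a2 alone of the 15 (0.92, adjusted p = 0.0133 by limma). Slc38a2 lacked values on outlier spots and rests on 3 chow, 4 1B, 2 HFD, and 4 HFD+1B mice.

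Genes of amino acid synthesis and one-carbon metabolism went both ways, with 3 of 17 above and 2 below chow in HFD+1B (29.4% called, against 16.3% of all genes, median 0.16). Got1, a cytosolic aspartate aminotransferase, rose by 1.74 (adjusted p = 2.79e-04 by limma), and Psph, the last enzyme of serine synthesis, by 1.00 (adjusted p = 0.00313 by limma). Cth, which makes cysteine from cystathionine, fell by 1.67 on the log2 scale (adjusted p = 1.89e-04 by limma; 3 chow mice with a value). Mthfd1l (0.73) was the third higher gene and Shmt2 (−0.33) the second lower, both of mitochondrial one-carbon metabolism. The interaction was positive for Got1 (1.65, adjusted p = 0.0288 by limma) and negative for Shmt1, a serine hydroxymethyltransferase (−0.90, adjusted p = 0.0179 by limma).

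The eIF2α kinases, phosphatases, and eIF2B subunits had 1 of 19 genes above and 2 below chow in HFD+1B (15.8% called, a share near the 16.3% of all genes; median 0.09). Impact, an inhibitor of the kinase GCN2, rose by 0.41 (adjusted p = 0.0014 by limma). Eif2a, which was also listed, fell by 0.46 on the log2 scale (adjusted p = 0.00603 by limma). It encodes the separate factor eIF2A and not eIF2α, whose gene is Eif2s1. Eif2b5, a subunit of eIF2B, fell by 0.39 on the log2 scale (adjusted p = 0.00876 by limma). Of the same list, 3 had a negative interaction: the eIF2B subunits Eif2b1 (−0.59, adjusted p = 0.0445 by limma) and Eif2b5 (−0.56, adjusted p = 0.0291 by limma), and the adaptor Nck1 (−0.59, adjusted p = 0.0414 by limma).

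Cytosolic tRNA synthetases, many of them ATF4 targets, had 2 of 21 genes above and 2 below chow in HFD+1B (19% called, near the 16.3% of all genes; median 0.05). Tars rose by 0.76 (adjusted p = 0.00117 by limma), Cars rose by 0.41 (adjusted p = 0.0249 by limma), and Kars fell by 0.36 (adjusted p = 0.0173 by limma) and Eprs by 0.26 on the log2 scale (adjusted p = 0.0467 by limma). Tars was 1.18 above chow in 1B, and its interaction, −0.78, was called (adjusted p = 0.0419 by limma), as was that of Kars (−0.54, adjusted p = 0.0348 by limma). Of the mitochondrial stress sensors and chaperones, 1 of 13 was higher (Clpx, the chaperone of a matrix protease, 0.82, adjusted p = 0.0403 by limma) and 1 lower (Clpp, the protease itself, −0.39, adjusted p = 0.0488 by limma), with a median of −0.05 and a share called, 15.4%, near that of all genes.

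Among the regulators and receptors of FGF21 and GDF15, 3 of 18 genes were above and 2 below chow in HFD+1B (27.8% called, against 16.3% of all genes, median 0.07). Egr1, an immediate early factor, rose by 2.60 ± 0.30 SE (adjusted p = 1.42e-05 by limma). Egr1 also differed from chow by 1.71 in 1B and 0.59 in HFD. All 1B mice (−0.84 to 0.26) were above all chow mice (−2.41 to −1.43) for this gene. Ppara, the receptor that induces Fgf21 in fasting, fell by 1.09 on the log2 scale (adjusted p = 0.00699 by limma): its HFD+1B mice were between −1.49 and −0.16 and its chow mice between −0.28 and 1.08, with overlap. It was below chow in 1B as well (−1.06, adjusted p = 0.0343 by limma). Creb3l3, a hepatic factor that acts on Fgf21 together with PPARα, rose by 0.52 (adjusted p = 0.00646 by limma) and Nfe2l2, the oxidative stress factor NRF2, by 0.50 (adjusted p = 0.00788 by limma). Nr1h4, the bile acid receptor FXR, fell by 0.68 on the log2 scale (adjusted p = 0.00156 by limma). The interaction was positive for Rora (1.03, adjusted p = 0.00246 by limma), a nuclear receptor, and negative for Nr1h4 (−0.88, adjusted p = 0.0214 by limma).

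**Figure D4:**
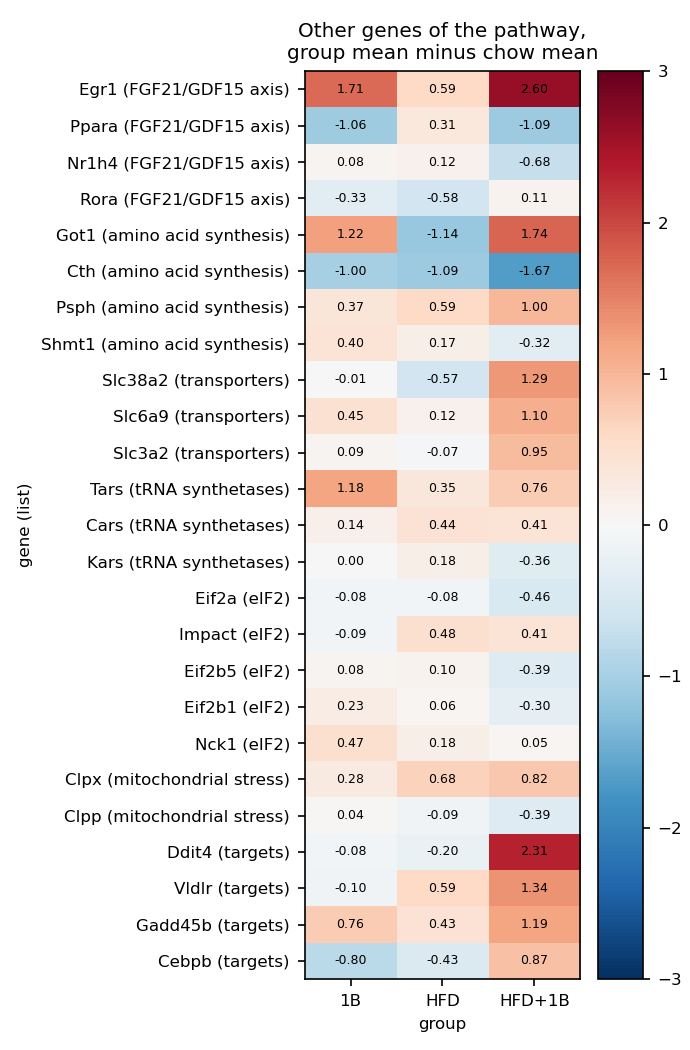
Group mean minus chow mean, as log2 difference, for the 25 named pathway genes outside the set. Columns are 1B, HFD, and HFD+1B, rows are genes with a short name of their list, and color and printed numbers give the difference. Ddit4, Slc38a2, and Slc3a2 are positive in the HFD+1B column and near or below 0 in the other 2.

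The genes whose log2 ratios were most like each called member over the mice were taken from 15363 candidates outside the set that were above background on all 17 arrays. They share arrays and groups with the member, so the coefficients are descriptions. For Gdf15 they were Chmp2b (Pearson r = 0.95), Pmepa1 (0.93), and Acot9 (0.93), for Chac1 Nfkbib (0.94), Hist2h3c1 (0.93), and Gadd45g (0.93), and for Atf3 Cd14 (0.92), Pmepa1 (0.91), and Lgmn (0.91), each over 17 mice. Pmepa1 was thus among the 3 closest genes of both Gdf15 and Atf3. For Fgf21 they were Ftl1 (0.93), Dctn2 (0.91), and Fkbp14 (0.90), and for Atf4 Serpina3m (0.85), Plrg1 (0.84), and Brsk2 (0.82), over 17 mice as well. For Atf5 they were Lrp11 (0.89), Tbrg1 (0.88), and Ddx39 (0.87) over 16 mice, and for Sesn2 Crebzf (0.93), Mslnl (0.90), and Btbd10 (0.90) over 15. No gene of the set was among the candidates.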

How the data were processed

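Liver RNA of 17 mice (chow, 1B, and HFD, n = 4 each; HFD+1B, n = 5; groups from the sample titles) was labeled with Cy5 and hybridized to Agilent 44K mouse arrays with a Cy3-labeled common reference, without dye swap. The labels call the reference an assortment of mouse RNA and also liver. The authors scanned the arrays with Agilent Feature Extraction 11.5.1.1. The deposited scanner files hold raw intensity values per spot, and a deposited table gives the authors' background-subtracted and dye-normalized log2 ratios, equal to those of the processed signals within 2.7e-06 and used as an alternative. No replicate information beyond a number per mouse is given, 5 slides were used, each with arrays of more than 1 group, and scans were of 1 day.

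Median signals were corrected with normexp (offset 50), spots marked as outliers were left out, loess was applied to the log2 ratios of each array, and spots of a probe were averaged with limma 3.58.1 in R 4.3.3. The offset draws ratios of dim probes toward 0. Probes well above background in Cy5 on at least 4 arrays and with a value in every group were tested (34664 of 41174; 19358 genes). All 17 arrays were fitted as 4 group means with lmFit and eBayes, in 6 comparisons, at a Benjamini-Hochberg adjusted p of 0.05. The fit was tested on simulated data. Alternatives were the authors' table, no background subtraction, median centring, Cy5 alone, other filters on dim probes, the mean of a gene's probes, slide or replicate number as a block, each mouse left out, analysis of variance per probe with the methods' Tukey test, and a 2-fold threshold with an unadjusted p. Keeping outlier spots was added after seeing the data.

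The 10 genes, the 7 pathway lists, and the marker lists (also of endothelium, lymphocytes, cholangiocytes, acinar cells, and adipocytes) were chosen with earlier results of these data known. Named from each pathway list were up to 3 genes with the largest called difference in HFD+1B minus chow and up to 2 in the interaction, and for each called member the 3 genes with the highest Pearson r. Adipocyte markers averaged 0.70 above chow in HFD and 0.68 in HFD+1B (1 of 5 called higher in each, Cidec, at 3.44 and 3.72). The others were not called: Adipoq (−0.35 and −0.34), Lep (−0.08 and −0.01), Plin1 (0.06 and −0.10), and Retn (0.40 and 0.14). Endothelial markers averaged 0.39 and 0.17 (2 of 7 higher, then 1 higher and 3 lower). In HFD+1B the higher gene was Lyve1 (3.19), and the lower genes were Kdr (−1.05), Clec4g (−0.81), and Oit3 (−0.49). Cholangiocyte markers averaged −0.34 and 0.19 (2 of 5 lower, then none called). Lymphocyte markers averaged −0.02 and 0.12 (none of 7 called) and acinar markers 0.03 and 0.04 (none of 6, then 1 higher). The shares called of all genes were 10.9% in HFD and 16.3% in HFD+1B. Promoters were RefSeq windows (GRCm38.p6); the array annotation is of an older build, and no gene coordinates were used.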

Additional observations from a re-analysis of the deposited data

Results flagged for a closer look

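In 3 of the 37 sets of values examined (each gene's probe in a group of at least 4 mice), 1 mouse stood apart by its gap to the nearest other mouse relative to the whole range of its group, where chance gives about 1.85. Atf3 in 1B mouse 1 was −0.442, above the other 3 at −1.11 to −1.04 (gap 0.907 of the range). Atf3 in HFD+1B mouse 4 was 1.23, above the other 4 at −0.157 to 0.119 (gap 0.802). Fgf21 in 1B mouse 2 was −1.45, below the other 3 at −0.427 to −0.303 (gap 0.892).

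The difference that ethanol made was not the same on HFD as on chow, by the interaction term of the limma fit, for 3 of the 10 genes: Atf5 (−1.17), Chac1 (1.8), and Gdf15 (1.25).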

How the results depend on the processing

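Over the alternatives other than leaving out a mouse, 661 of 710 values of single genes of the set kept their side of the threshold, 36 lost the call, and 13 gained it. Over the values without 1 mouse, 970 of 1020 kept their side, 45 lost the call, and 5 gained it. No called value changed its sign. Values called in neither setting were counted as kept even where their sign changed. Sesn2 in 1B minus chow, for example, ran from −0.55 to 0.11 over the alternatives.

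Of the 10 genes, 2 were called in 1B minus chow, and 1 in the authors' table, with median centring, from Cy5 alone, by the Tukey test, and at 2-fold. The shares of all genes were 4.15% and, in that order, 2.58%, 2.68%, 0.889%, 1.01%, and 1.06%. For HFD minus chow 5 were called, and 3 with median centring, 2 from Cy5 alone, 0 by the Tukey test after adjustment (5 at its p below 0.05 before adjustment over all probes, as with limma), and 1 at 2-fold. Here the shares of all genes were 10.9% and, in that order, 10.4%, 3.92%, 1.57%, and 1.94%. For HFD+1B minus HFD the Tukey test called 1 in place of 2, and for HFD+1B minus 1B 2 in place of 4. Over all genes it called 5.47% in place of 19.3%, and 2.99% in place of 11.4%. The interaction called 3, and 5 with the slide as a block. The replicate block called 5 as well. Over all genes the interaction called 4.26%, 6.4% with the slide block, and 9.12% with the replicate block. Same-numbered mice of different groups had a median correlation of 0.18 against −0.05 for mice with different numbers, 16 of 24 pairs were above 0.1, and 9 of 16 mice correlated best with their own number. Since not every pair was above 0.1, the numbers were not taken as a pairing, and these correlations are a hint from the data, not from the design. Numbers and slides overlap: number 1 was on slide 1, 2 on slides 2 and 3, 3 on slides 3 and 4, and 4 on slides 4 and 5. The part of the slide in these correlations was not tested. Without each mouse in turn, the counts were 1 to 2, 3 to 5, 5 to 5, 2 to 3, 3 to 5, and, for the interaction, 1 to 3.

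Of the 129 pathway genes, 14, 14, 41, 37, 28, and 15 were called in the order 1B, HFD, and HFD+1B minus chow, HFD+1B minus HFD, HFD+1B minus 1B, and interaction. Cy5 alone called 3, 7, 15, 17, 9, and 4 (0.889%, 3.92%, 5.74%, 5.96%, 2.9%, and 0.796% of all genes). The Tukey test called 4, 3, 22, 16, and 13 and gives no interaction (1.01%, 1.57%, 7.06%, 5.47%, and 2.99% of all genes). The 2-fold threshold called 7, 3, 10, 8, 4, and 7 (1.06%, 1.94%, 3.04%, 2.1%, 1.91%, and 2.2% of all genes). The authors' table called 8 in 1B minus chow, 18 in HFD+1B minus 1B, and 7 in the interaction (2.58%, 8.5%, and 3.9% of all genes). Leaving out each mouse gave 7 to 15, 7 to 14, 32 to 43, 28 to 41, 21 to 32, and 7 to 19. Median centring shifted the median of all genes to 0.14 in HFD+1B minus HFD and in the interaction. The causes were not tested. Signal over background limits dim probes, among them the second probe of Fgf21, the Atf3 probe, and the Trib3 probes (median Cy5 above the offset 48.3 and 30.6 in HFD).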
